A study of Mus musculus with 17 samples.

Results

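The genes described are 10 marker genes of mouse pluripotent cells, Utf1, Zfp42, Sall4, Fbxo15, Eras, Tcl1, Trap1a, Spp1, Upp1 and Pecam1, followed through reprogramming with and without Nanog. They were taken by gene symbol from the per-sample tables. All 10 symbols were found among the 28670 genes of the tables, and all 10 passed the filter on low values with which 15298 genes were tested. The questions were which of these markers were on in induced pluripotent stem cells (iPSC) made without Nanog, and which were off in partially reprogrammed cells (piPSC), whose reprogramming had stopped short.

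The RNA-seq data cover 17 samples of mouse cells, which fall into 7 groups. In the strain labelled 129/B6 (v6.5) there were 2 samples each of Nanog -/- iPSC clone G2, Nanog -/- iPSC clone G5, Nanog -/- embryonic stem cells (ESC) and WT piPSC of clone B1, with 1 sample of WT iPSC and 2 of WT ESC. In the strain labelled c57/b6 there were 2 samples each of WT embryonic fibroblasts (MEF), WT iPSC and WT ESC. The iPSC and piPSC lines were made with retroviruses for mouse Klf4, Sox2 and Oct4, c-Myc being optional, and which lines received it is not given. Nanog -/- MEF came from chimeric embryos at E12.5, made by injecting Nanog -/- ESC into blastocysts, and were sorted by a constitutive GFP. Colonies were picked on day 20 and then grown on feeder cells in 2i + LIF. The Nanog -/- lines, the piPSC and the 129/B6 iPSC were at passage 6, the WT ESC and the c57/b6 iPSC at passages 10 to 15, and the MEF, grown in 10% FBS, at passage 2. The 11 samples of 129/B6 carry one prefix in their sample codes and the 6 of c57/b6 another. Strain cannot be told apart from batch, and all values below are read within a strain unless stated.

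Pluripotent cells are held by a network of transcription factors around Oct4 and Sox2, and Nanog is a homeodomain factor that strengthens it. The markers followed here are switched on by that network or mark the state without being needed for it. Several are silent in fibroblasts and are used to tell fully reprogrammed colonies from partly reprogrammed ones. Utf1 encodes a chromatin-associated protein, and Zfp42 (Rex1) and Sall4 encode zinc-finger proteins. Eras encodes a constitutively active Ras-like GTPase and Tcl1 a coactivator of the kinase Akt. Fbxo15 encodes an F-box protein of ubiquitin ligases and Upp1 the enzyme uridine phosphorylase. Trap1a encodes a tumour rejection antigen, Spp1 the secreted protein osteopontin, and Pecam1 the adhesion molecule CD31, which endothelial cells also carry.

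The libraries held 7.80 M to 43.5 M assigned fragments. Nanog, the targeted gene, was at 4.81% of the 129/B6 WT ESC mean in clone G2, 7.26% in clone G5 and 8.34% in Nanog -/- ESC, and at 0.528% in WT piPSC. A level over the whole gene cannot show the deleted stretch, so these values check the labels in part only. Pou5f1 (Oct4) was at 941% of the WT ESC mean in WT piPSC, and endogenous and retroviral RNA cannot be told apart in it. Fibroblast markers were above 0 in every library. Their 10 genes summed to 511 to 1316 FPKM in the 6 Nanog -/- samples, with Col1a1 and Col1a2 highest, and to 65.5 to 106 in WT piPSC, where 5 of the 10 were under 1 FPKM, against 192 to 201 in 129/B6 WT ESC. FPKM are fragments scaled by gene length and library size, as the authors computed them. In such bulk samples, fewer cells of a type and less RNA per cell cannot be told apart.

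The starts of 4 genes are shown as examples. Utf1, Zfp42 and Trap1a were near 0 in WT piPSC, as were Sall4, Tcl1, Spp1 and Upp1, and Eras was at the ESC level. Each window holds 250 bases before and 50 bases after the gene's start as RefSeq gives it (GRCm38.p6), 5′ to 3′ on the gene's strand. Capitals mark matches to the octamer ATGCAAAT that Oct4-type factors bind, the GC box GGGCGGG and the CACCC box CCACACCC, each searched on both strands.

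Utf1, chr7:139943606-139943905, plus strand: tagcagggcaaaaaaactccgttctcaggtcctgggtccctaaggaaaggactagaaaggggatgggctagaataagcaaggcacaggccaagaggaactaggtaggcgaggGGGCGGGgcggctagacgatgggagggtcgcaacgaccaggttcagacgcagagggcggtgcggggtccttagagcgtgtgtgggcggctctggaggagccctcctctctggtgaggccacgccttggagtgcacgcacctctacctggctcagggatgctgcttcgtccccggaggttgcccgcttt

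Zfp42, chr8:43306960-43307259, minus strand: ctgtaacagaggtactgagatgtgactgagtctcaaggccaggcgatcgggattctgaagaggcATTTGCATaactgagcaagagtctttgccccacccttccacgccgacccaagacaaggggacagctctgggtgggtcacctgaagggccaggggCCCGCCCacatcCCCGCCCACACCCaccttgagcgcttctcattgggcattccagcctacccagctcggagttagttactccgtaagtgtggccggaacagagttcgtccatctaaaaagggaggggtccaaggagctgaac

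Trap1a, chrX:139333433-139333732, plus strand: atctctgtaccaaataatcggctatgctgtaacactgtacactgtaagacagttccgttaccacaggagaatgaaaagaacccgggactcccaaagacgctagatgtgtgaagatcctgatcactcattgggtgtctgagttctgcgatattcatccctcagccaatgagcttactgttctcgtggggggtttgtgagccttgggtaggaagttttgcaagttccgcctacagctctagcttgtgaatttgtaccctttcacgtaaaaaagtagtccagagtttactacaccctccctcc

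Eras, chrX:7928558-7928857, minus strand: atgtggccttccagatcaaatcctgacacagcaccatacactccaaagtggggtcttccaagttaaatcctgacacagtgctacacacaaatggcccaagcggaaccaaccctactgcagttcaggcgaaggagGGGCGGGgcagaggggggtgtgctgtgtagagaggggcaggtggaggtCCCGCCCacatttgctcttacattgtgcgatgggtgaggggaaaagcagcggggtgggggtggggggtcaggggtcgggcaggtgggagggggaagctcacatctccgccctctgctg

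The Zfp42 window held the octamer, on the opposite strand at position -186 from the start, with 2 GC boxes and 1 CACCC box, the last overlapping a GC box. The Utf1 window held 1 GC box, that of Eras 2, and that of Trap1a held no match to the 3 motifs. Of all 32851 RefSeq windows of this length, 1.74% held the octamer, 25.6% the GC box and 3.56% the CACCC box. The Sox motif CATTGTT, held by 3.78% of windows, matched none of them. The share of G and C was 62% for Utf1, 57.7% for Zfp42, 46.7% for Trap1a and 60% for Eras, against a median of 52.7% over all windows. Windows were read for 7 of the 10 genes. Among the windows not shown, window 2 of Spp1 held the octamer at position -210, and those of Tcl1 and Upp1 held GC boxes. Letters that match are a description only.

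Without Nanog, 9 of the 10 markers were detected but lower than in WT ESC, and the tenth, Sall4, was not lower. Eras, at 1.02 and 1.35 FPKM in clone G2, was close to levels called near 0 in WT piPSC, such as Zfp42 at 1.07 and 0.965. In Nanog -/- iPSC 0 of 10 markers rose and 9 fell at a limma adjusted p under 0.05, in a comparison in which 33.6% of all genes tested were called higher and 32.5% lower. At an unadjusted p under 0.05, 0 rose and 9 fell, and edgeR and DESeq2 on fragments gave 0 and 9 as well. For the mean of the 2 clones, none of the 10 reached a 4-fold fall on the log2(FPKM + 1) scale, which 0.843% of all genes did. As ratios of mean FPKM in single clones, WT ESC was 4.75-fold above G2 for Eras. It was 4.41-fold above G5 for Tcl1 and 4.12-fold for Pecam1. The 129/B6 WT iPSC sample, which has Nanog and was at passage 6 like the Nanog -/- lines, had Zfp42 at 24.7% of the WT ESC mean, below all 3 Nanog -/- lines, and Tcl1 at 53.5%, with the other 8 markers at 86.9% to 212%. The Zfp42 value of this WT iPSC line rests on 1 library. The part of Nanog in the lower Zfp42 of the Nanog -/- lines was not tested. The median log2 change of the 10 was -1.07, against 0.00 over all genes tested. Here the 2 clones had a term each and their mean was set against WT ESC, and differences between clones are not part of the error. The Nanog -/- lines and the piPSC were at passage 6, and WT ESC at passages 10 to 15. Passage therefore cannot be told apart from genotype or cell state in their comparisons with 129/B6 WT ESC.

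**Figure D1:**
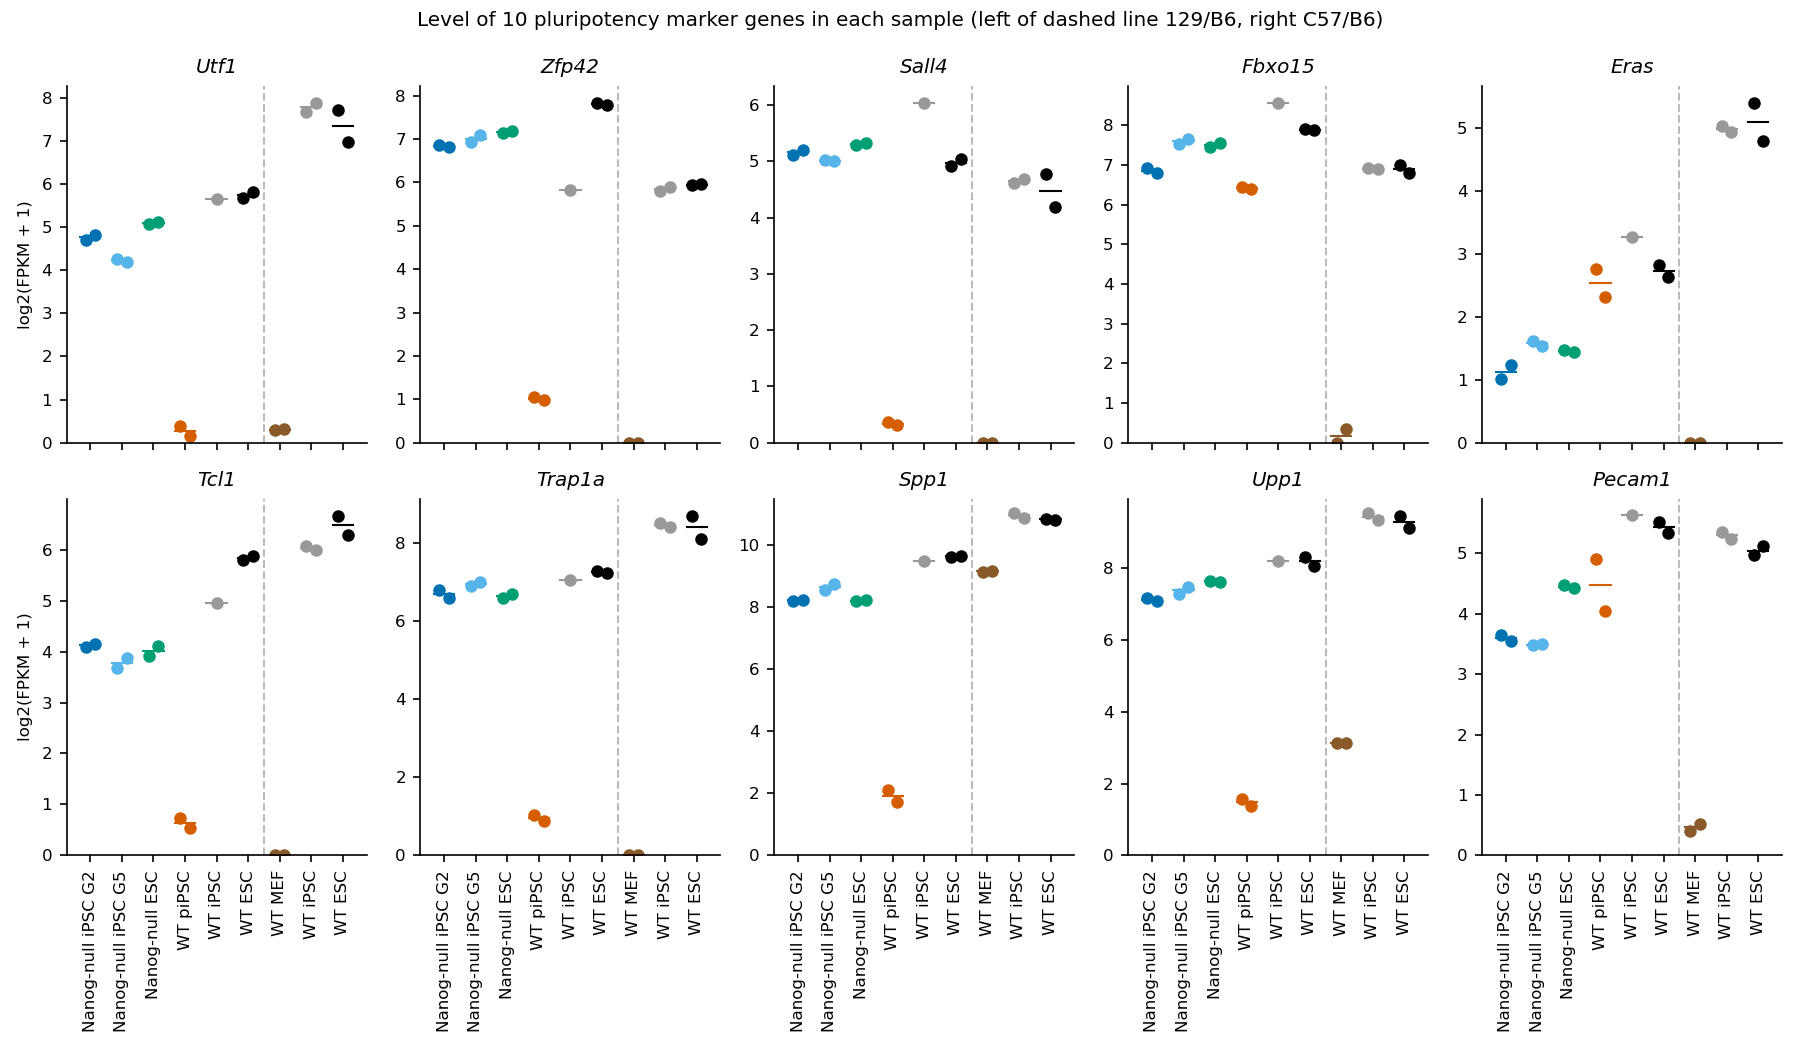
Level of each marker as log2(FPKM + 1), with 1 point per sample and a line at the mean of each group; 129/B6 groups stand left of the dashed line and c57/b6 groups right of it, and each panel has its own vertical scale from 0. The Nanog -/- samples lie below 129/B6 WT ESC in 9 panels, all but that of Sall4. The WT piPSC samples are near 0 in 7 panels and closer to 129/B6 WT ESC for Fbxo15, Eras and Pecam1.

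Utf1 had 25.1 and 27.3 FPKM in clone G2, 18.0 and 17.2 in clone G5 and 32.7 and 33.5 in Nanog -/- ESC, against 50.4 and 55.3 FPKM in WT ESC. All 6 Nanog -/- samples were below both WT ESC samples, and the clone means were 49.6% and 33.3% of the WT ESC mean for G2 and G5. The log2 change in Nanog -/- iPSC was -1.26 ± 0.16 (SE, limma adjusted p = 2e-05). In Nanog -/- ESC it was -0.66 ± 0.18 (limma adjusted p = 0.0081), and this call was lost without WT ESC sample 2 (adjusted p = 0.055).

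Zfp42 had 114 and 112 FPKM in clone G2, 121 and 135 in clone G5 and 141 and 145 in Nanog -/- ESC, against 227 and 220.4 FPKM in WT ESC. The groups did not overlap, and the Nanog -/- groups were at 50.7% to 63.9% of WT ESC. Its log2 change was -0.89 ± 0.06 in Nanog -/- iPSC (limma adjusted p = 1.9e-07) and -0.64 ± 0.07 in Nanog -/- ESC (limma adjusted p = 1.5e-05). Both calls were lost where group and strain were fitted as additive terms, which pools WT ESC of both strains (adjusted p = 0.13 and 0.53).

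Sall4 had 33.7 and 35.8 FPKM in clone G2, 31.5 and 31.2 in clone G5 and 38.2 and 39.0 in Nanog -/- ESC, against 29.1 and 31.9 FPKM in WT ESC. Clone G5 lay within the WT ESC range, while clone G2 and Nanog -/- ESC lay above it. The single 129/B6 WT iPSC sample was higher than all of these, at 64.7 FPKM. The log2 change was 0.11 ± 0.12 in Nanog -/- iPSC (limma adjusted p = 0.45) and 0.33 ± 0.14 in Nanog -/- ESC (limma adjusted p = 0.065). On fragment counts Sall4 was called higher in Nanog -/- ESC, with an edgeR adjusted p of 0.0023 and a DESeq2 adjusted p of 4.2e-05, and limma called it without c57/b6 WT ESC sample 3 or 4 (adjusted p = 0.00072 and 0.00070). In Nanog -/- iPSC its log2 change was -0.01 by DESeq2, with no call.

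The signalling genes Tcl1 and Eras were at 21.1% to 35.2% of the WT ESC mean in the 3 Nanog -/- lines. Tcl1 had 16.1 and 16.7 FPKM in clone G2, 11.8 and 13.6 in clone G5 and 14.1 and 16.3 in Nanog -/- ESC, against 54.3 and 57.6 FPKM in WT ESC. On the log2 scale it changed by -1.88 ± 0.11 in Nanog -/- iPSC (limma adjusted p = 3.3e-08) and by -1.82 ± 0.13 in Nanog -/- ESC (limma adjusted p = 2.5e-07). Eras, the lowest of the 10 in ESC of this strain, had 1.02 and 1.35 FPKM in clone G2, 2.06 and 1.90 in clone G5 and 1.78 and 1.72 in Nanog -/- ESC, against 6.04 and 5.20 FPKM in WT ESC. These values rest on 27 to 83 fragments per Nanog -/- sample. The log2 change of Eras was -1.38 ± 0.16 in Nanog -/- iPSC (limma adjusted p = 1.1e-05) and -1.27 ± 0.19 in Nanog -/- ESC (limma adjusted p = 0.0001).

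Fbxo15 and Upp1 were at 47.5% to 81.7% of the WT ESC mean in these lines. Fbxo15 had 119.7 and 111 FPKM in clone G2, 184 and 201 in clone G5 and 174 and 186 in Nanog -/- ESC, against 238 and 234 FPKM in WT ESC. Its log2 change was -0.66 ± 0.09 in Nanog -/- iPSC (limma adjusted p = 6.6e-05) and -0.39 ± 0.11 in Nanog -/- ESC (limma adjusted p = 0.0094). With a pseudocount of 0.1 these changes were -0.66 and -0.39, but neither was called (limma adjusted p = 0.11 and 0.42). Without Nanog -/- ESC sample 1 that of Nanog -/- ESC was -0.34 and not called. Upp1 had 142 and 135 FPKM in clone G2, 155 and 176 in clone G5 and 199.5 and 195 in Nanog -/- ESC, against 318 and 265 FPKM in WT ESC. It changed by -0.94 ± 0.11 in Nanog -/- iPSC (limma adjusted p = 1.2e-05) and by -0.55 ± 0.13 in Nanog -/- ESC (limma adjusted p = 0.0026), with no overlap of samples.

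Among the antigen, secreted and surface markers, Trap1a was closest to WT ESC and Pecam1 farthest from it in the iPSC clones. Trap1a had 110.0 and 95.9 FPKM in clone G2, 118 and 128 in clone G5 and 95.3 and 103 in Nanog -/- ESC, against 156 and 150.3 FPKM in WT ESC. Its log2 change in Nanog -/- iPSC was -0.44 ± 0.13 (limma adjusted p = 0.01), a call lost without WT ESC sample 1 (adjusted p = 0.070), and -0.62 ± 0.15 in Nanog -/- ESC (limma adjusted p = 0.0039). Spp1 had 297 and 299.8 FPKM in clone G2, 374 and 431 in clone G5 and 292 and 302 in Nanog -/- ESC, against 797 and 809 FPKM in WT ESC. On the log2 scale it changed by -1.21 ± 0.11 in Nanog -/- iPSC (limma adjusted p = 9.4e-07) and by -1.43 ± 0.12 in Nanog -/- ESC (limma adjusted p = 1.3e-06). Pecam1 had 11.5 and 10.6 FPKM in clone G2, 10.2 and 10.3 in clone G5 and 21.2 and 20.5 in Nanog -/- ESC, against 45.0 and 39.3 FPKM in WT ESC. Its log2 change was -1.89 ± 0.17 in Nanog -/- iPSC (limma adjusted p = 1.4e-06) and -0.98 ± 0.20 in Nanog -/- ESC (limma adjusted p = 0.0012).

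In Nanog -/- ESC as in the clones, 0 of 10 markers were called higher and 9 lower by limma, where 30% of all genes tested were called higher and 29.2% lower. At an unadjusted p under 0.05 the counts were 1 and 9, the 1 being Sall4, which edgeR and DESeq2 also called higher. Of 19 further ESC-associated genes tested, 6 were called higher and 11 lower in Nanog -/- iPSC than in WT ESC, with a median log2 change of -0.54. Fgf4, an FGF ligand, changed by -3.10 on the log2 scale, with a mean of 8.62 FPKM in Nanog -/- iPSC against 81.0 in WT ESC, and Prdm14, a PR-domain factor, by -2.13. Dnmt3l, a partner of the DNA methyltransferases, rose by 3.01 and the RNA-binding protein gene Lin28a by 1.08. In Nanog -/- ESC, 4 of the 19 were called higher and 12 lower, with Dnmt3l (5.09) and Lin28a (2.55) again at the top and Fgf4 (-3.64) and Prdm14 (-2.48) at the bottom of the log2 changes. Both comparisons use the same 2 WT ESC samples.

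Primitive endoderm markers were higher in the Nanog -/- lines. Their 7 genes summed to 61.4 to 94.2 FPKM in the 6 Nanog -/- samples, against 4.23 to 5.20 in WT ESC. Gata6 and Dab2 were highest in clone G2, Gata6 and Gata4 in clone G5, and Dab2 and Gata4 in Nanog -/- ESC, and all 7 were above 1 FPKM in each of these samples. In MEF the same list summed to 88.6 to 89.9 FPKM, with Dab2 (59.5) and Pdgfra (25.5) highest and 4 of the 7 under 1 FPKM. Trophoblast markers summed to 68.5 to 139 FPKM in the Nanog -/- samples, with Krt7 and Tfap2c highest, against 38.3 to 38.6 in WT ESC. Krt7 averaged 44.4 FPKM in clone G2, 100.5 in clone G5 and 28.7 in Nanog -/- ESC, and 26.1 in c57/b6 WT ESC. Tfap2c was lower in the clones, with 16.1 in G2 and 17.4 in G5 against 31.5 in 129/B6 WT ESC. In Nanog -/- ESC it was at 35.5. It was not tested whether primitive endoderm or trophoblast cells were present. The part of such cells, and of the fibroblast RNA given above, in the lower marker levels was not tested either. The marker changes ranged from -1.89 for Pecam1 to 0.11 for Sall4 in the same libraries.

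**Figure D2:**
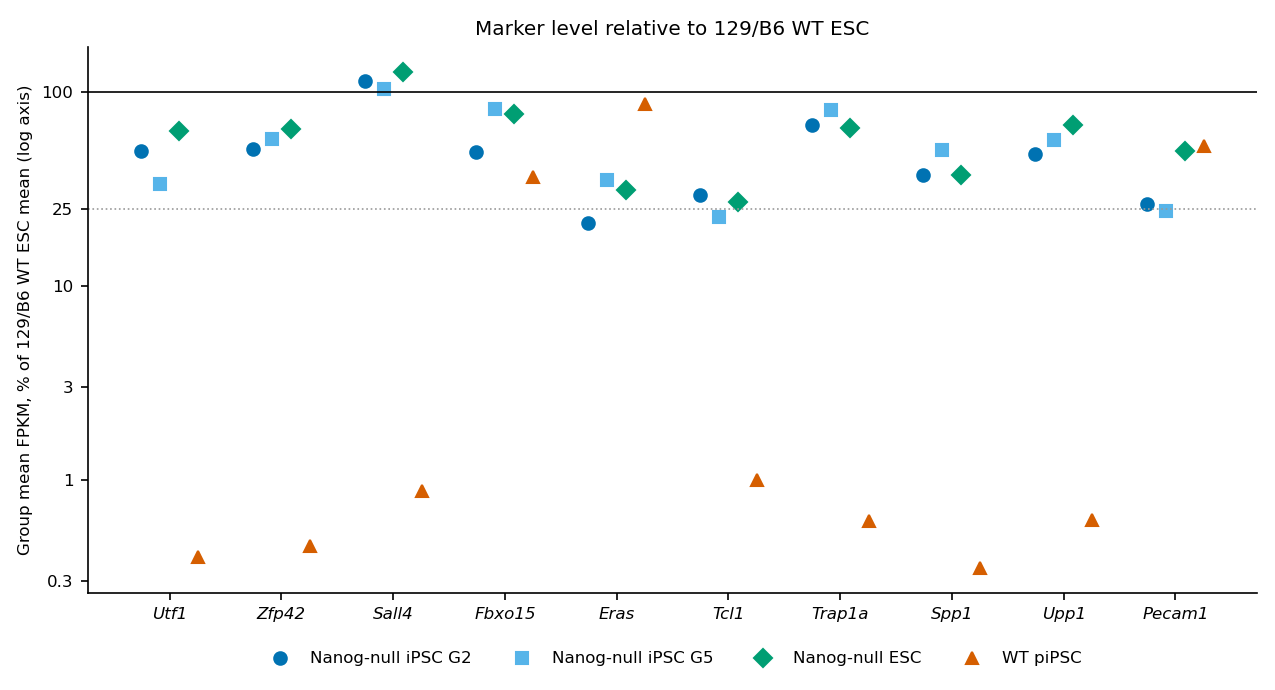
Mean level of each marker in 4 groups as a percentage of the 129/B6 WT ESC mean on a log axis, with the solid line at 100% and the dotted line at 25%; each symbol is the mean of 2 samples. Nanog -/- groups run from 21.1% (Eras in G2) to 127% (Sall4 in Nanog -/- ESC), while WT piPSC is at or below 0.993% for 7 markers and at 36.2%, 86.6% and 52.7% for Fbxo15, Eras and Pecam1.

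In WT piPSC 7 markers were at or below 0.993% of the WT ESC level and 3 were not: Fbxo15, Eras and Pecam1. By limma 0 of 10 rose and 9 fell, with equal counts for unadjusted limma p-values, edgeR and DESeq2, while 32.3% of all genes tested were called higher and 36% lower. A fall of at least 4-fold was called for 7 of 10, against 5.29% of all genes tested. The piPSC samples come from a single clone, so the results describe clone B1.

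Utf1 had 0.301 and 0.123 FPKM in WT piPSC, from 10 and 4 fragments, against 50.4 and 55.3 FPKM in WT ESC. The log2 change was -5.48 ± 0.18 (limma adjusted p = 1e-10), which understates the ratio of means of 250 because of the pseudocount. Zfp42 had 1.07 and 0.965 FPKM in WT piPSC against 227 and 220.4 in WT ESC, a log2 change of -6.80 ± 0.07 (limma adjusted p = 9.7e-14). Sall4 had 0.287 and 0.247 FPKM in WT piPSC against 29.1 and 31.9 in WT ESC, a log2 change of -4.63 ± 0.14 (limma adjusted p = 5.8e-11). These 3 nuclear factors were thus all under 1.1 FPKM in both piPSC samples.

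Tcl1 had 0.668 and 0.443 FPKM in WT piPSC against 54.3 and 57.6 in WT ESC, and fell by 5.20 ± 0.13 on the log2 scale (limma adjusted p = 1e-11). Trap1a had 1.03 and 0.844 FPKM in WT piPSC against 156 and 150.3 in WT ESC, and fell by 6.32 ± 0.15 (limma adjusted p = 8.1e-12). Upp1 had 1.99 and 1.61 FPKM in WT piPSC against 318 and 265 in WT ESC, and fell by 6.70 ± 0.13 (limma adjusted p = 1.9e-12). Spp1 showed the greatest fall of the 10, with 3.35 and 2.29 FPKM in WT piPSC against 797 and 809 in WT ESC, a log2 change of -7.73 ± 0.12 (limma adjusted p = 7.1e-13).

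Fbxo15 had 86.9 and 83.8 FPKM in WT piPSC against 238 and 234 in WT ESC. It was the highest of the 10 in these cells and had fallen by 1.46 ± 0.11 on the log2 scale (limma adjusted p = 1.6e-07). Timm21, a mitochondrial import gene on the opposite strand that overlaps Fbxo15, had 13.0 and 14.1 FPKM in WT piPSC against 3.50 and 4.97 in WT ESC. The library kit does not mark strand and the counting by strand is not given. In MEF, Timm21 had 10.2 and 11.6 FPKM while Fbxo15 had 0 and 0.266.

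Eras had 5.78 and 3.96 FPKM in WT piPSC, from 176 and 118 fragments, against 6.04 and 5.20 FPKM in WT ESC. The samples overlapped, and the log2 change was -0.19 ± 0.19 (limma adjusted p = 0.39). Without piPSC sample 2 it was 0.04 (adjusted p = 0.89). Eras overlaps Pcsk1n, a gene of the opposite strand, over 135 bases in the GENCODE annotation. Pcsk1n had 8.41 and 8.74 FPKM in WT piPSC against 0.971 and 1.56 in WT ESC. Without strand, fragments of the 2 genes within the overlap cannot be told apart, and the part of Pcsk1n in the Eras level was not tested.

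Pecam1 had 28.9 and 15.5 FPKM in WT piPSC against 45.0 and 39.3 in WT ESC. The 2 piPSC samples differed from each other by more than the 2 WT ESC samples did, yet both lay below WT ESC, and the log2 change was -0.95 ± 0.20 (limma adjusted p = 0.0011). The endothelial markers Tek and Tie1 stood higher beside it: the 7 genes of that list summed to 25.7 to 33.6 FPKM in WT piPSC, with Tek (14.7) and Tie1 (14.4) making up nearly all of it, against 7.14 to 7.45 in WT ESC. The other 5 were under 1 FPKM in both piPSC samples, and Vwf (0.446 in WT piPSC against 3.40 in WT ESC), Cd34 (0.0897 against 0.926) and Kdr (0.0129 against 0.301) were lower there than in WT ESC. The part of endothelial-type RNA in the Pecam1 level was not tested.

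**Figure D3:**
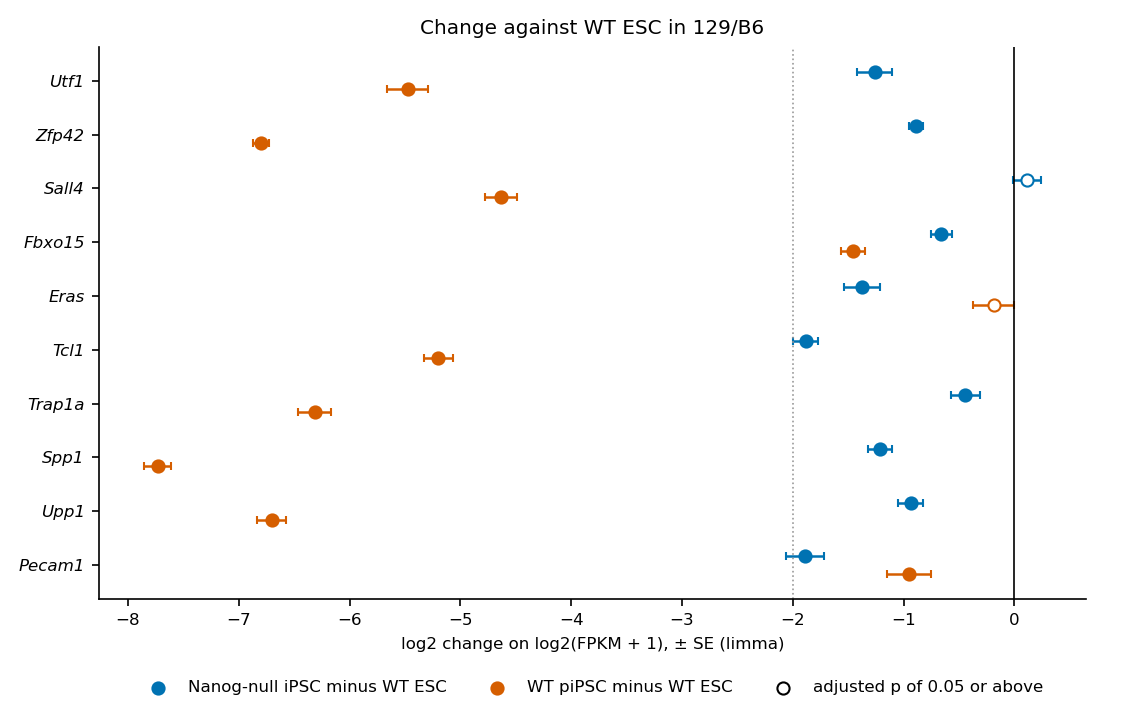
Log2 change of each marker on the log2(FPKM + 1) scale against 129/B6 WT ESC, for Nanog -/- iPSC (blue, 4 samples) and WT piPSC (orange, 2 samples), with the SE from limma as bars; open points have an adjusted p of 0.05 or above, and the dotted line marks a 4-fold fall. The 2 sets share the same WT ESC samples. The piPSC points lie from -7.73 (Spp1) to -0.19 (Eras) and those of Nanog -/- iPSC from -1.89 (Pecam1) to 0.11 (Sall4).

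Of the 19 further ESC-associated genes, 18 were called lower in WT piPSC than in WT ESC and 1, L1td1, was not called, with a median log2 change of -3.34 against -0.05 over all genes tested. Dppa5a, an RNA-binding protein gene of the Dppa group, fell by 8.39 to a mean of 18.5 FPKM, against 6551 in WT ESC, and Dppa3 (Stella) fell by 6.60. The called genes with the least change were Zfp296, which fell by 1.02, and Fgf4, which fell by 1.18 and had a mean of 35.6 FPKM in WT piPSC against 81.0 in WT ESC. L1td1, an RNA-binding protein gene of pluripotent cells, had means of 136 FPKM in WT piPSC and 138 in WT ESC.

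Set directly against WT piPSC, Nanog -/- iPSC had 8 of the 10 markers higher and 2 lower by limma, where 38.5% of all genes tested were called higher and 35.7% lower. A rise of at least 4-fold was called for 7 of 10, against 6.73% of all genes tested. Mean Zfp42 was 121 FPKM in Nanog -/- iPSC and 1.02 in WT piPSC, a log2 change of 5.91 ± 0.06 (limma adjusted p = 5.8e-14). Spp1 (6.52 ± 0.11), Trap1a (5.87 ± 0.13), Upp1 (5.77 ± 0.11), Sall4 (4.75 ± 0.12), Utf1 (4.22 ± 0.16) and Tcl1 (3.31 ± 0.11) likewise rose on the log2 scale. Fbxo15 rose by 0.80 ± 0.09 (limma adjusted p = 8.5e-06), a call lost with a pseudocount of 0.1 (adjusted p = 0.052). The 2 markers that were lower without Nanog than in piPSC were Eras, with means of 1.58 FPKM in Nanog -/- iPSC and 4.87 in WT piPSC (log2 change -1.19 ± 0.16, limma adjusted p = 2.7e-05), and Pecam1, with means of 10.6 FPKM in Nanog -/- iPSC and 22.2 in WT piPSC (log2 change -0.94 ± 0.17, limma adjusted p = 0.00036). Of the 19 further ESC-associated genes, 18 were called higher, with Dppa5a (6.93) and Dppa3 (5.34) first, and Fgf4 alone was called lower (-1.92).

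Against Nanog -/- ESC, the Nanog -/- iPSC had 0 of 10 markers called higher and 4 called lower by limma, where 10.1% of all genes tested were called higher and 8% lower. At an unadjusted p under 0.05 the counts were 0 and 5, with edgeR 0 and 6, and with DESeq2 1 and 6. Pecam1 differed most, with means of 10.6 FPKM in Nanog -/- iPSC and 20.9 in Nanog -/- ESC (log2 change -0.91 ± 0.17, limma adjusted p = 0.0032). Utf1 (-0.60 ± 0.16, limma adjusted p = 0.020), Upp1 (-0.38 ± 0.11, limma adjusted p = 0.032) and Zfp42 (-0.25 ± 0.06, limma adjusted p = 0.020) were also called. Those 3 calls were lost without Nanog -/- ESC sample 1 or sample 2, which left 1 call each. Utf1 was also lost without G2 sample 1 or G5 sample 2, Upp1 without G2 sample 1, G2 sample 2 or G5 sample 1, and Zfp42 without G2 sample 2 or G5 sample 1. Calls for 2 markers were left without either G2 sample and without G5 sample 1. Among the 19 further ESC-associated genes, 6 were called higher and 4 lower.

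Clone G2 had 0 of 10 markers called higher and 2 called lower than clone G5 by limma, where 5.02% of all genes tested were called higher and 4.73% lower. At an unadjusted p under 0.05 the counts were 2 and 4, and both edgeR and DESeq2 called 1 and 2. Fbxo15 had 119.7 and 111 FPKM in clone G2 against 184 and 201 in clone G5, a log2 change of -0.73 ± 0.11 (limma adjusted p = 0.0012), which was not called with a pseudocount of 0.1 (adjusted p = 0.36). Spp1 had 297 and 299.8 FPKM in clone G2 against 374 and 431 in clone G5, a log2 change of -0.43 ± 0.12 (limma adjusted p = 0.049). That call stood at the threshold and was lost without any of 12 samples left out singly, namely both samples of each clone (adjusted p = 0.34 without G5 sample 2), both of Nanog -/- ESC, both of 129/B6 WT ESC, both of MEF and both of c57/b6 WT iPSC. Without c57/b6 WT ESC sample 3 or 4 more markers were called, as were more of all genes tested. Utf1 was higher in both G2 samples than in both G5 samples, with means of 26.2 FPKM in G2 and 17.6 in G5, and did not pass the test (limma adjusted p = 0.086). Fibroblast markers summed to 1255 to 1316 FPKM in clone G2 and 511 to 516 in clone G5, and their part in these differences was not tested.

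In c57/b6 fibroblasts, the cell type from which reprogramming starts, 8 of the 10 markers were under 1 FPKM, Upp1 was low and Spp1 was high. By limma 0 of 10 were called higher and 10 lower than in WT ESC of this strain, with equal counts for unadjusted limma p-values, edgeR and DESeq2, while 39.4% of all genes tested were called higher and 42.1% lower. A fall of at least 4-fold was called for 9, against 11.8% of all genes tested. Zfp42, Sall4, Eras, Tcl1 and Trap1a had 0 fragments in both MEF samples. Set against a limit of 3 fragments per library, which covers counting error only, Trap1a was at least 1057-fold lower in MEF than in WT ESC, Tcl1 at least 319-fold, Zfp42 at least 298-fold, Sall4 at least 205-fold and Eras at least 92.2-fold.

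Utf1 had 0.222 and 0.247 FPKM in MEF, from 2 and 5 fragments, against 208 and 124 in WT ESC. Fbxo15 had 0 and 0.266 FPKM in MEF against 128 and 111 in WT ESC, and Pecam1 had 0.324 and 0.433 against 30.3 and 33.8. Upp1 had 7.80 and 7.82 FPKM in MEF against 696 and 554 in WT ESC, from 61 and 117 fragments in MEF. Spp1 was the marker that MEF carried at a high level, with 566 and 579 FPKM in MEF against 1854 and 1806 in WT ESC (log2 change -1.67 ± 0.12, limma adjusted p = 6.3e-08). After quantile normalization that change was -0.32 (adjusted p = 0.017). Macrophage markers, whose cells also express Spp1, stood high beside it: their 8 genes summed to 627 to 629 FPKM in MEF, with Lyz2 (355) and Tyrobp (61.5) highest, against 69.5 to 96.9 in WT ESC. The part of macrophage RNA in the MEF level of Spp1 was not tested. Of the 19 further ESC-associated genes, 1 was called higher and 18 lower in MEF than in WT ESC.

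MEF were sequenced in c57/b6 only, so piPSC and MEF are compared through the WT ESC of each strain. In this comparison 6 of 10 markers were called higher in WT piPSC and 3 lower by limma, where 39.4% of all genes tested were called higher and 37.3% lower, and edgeR and DESeq2 each called 7 and 2. The Utf1 call, at means of 0.212 FPKM in WT piPSC and 0.235 in MEF, was lost with both (adjusted p = 0.19 and 0.058). Calls of at least 4-fold were made for Eras, Fbxo15, Pecam1 and Trap1a as higher and Spp1 as lower, against 11.5% and 9.98% of all genes tested. Trap1a was near 0 on both sides, with 1.03 and 0.844 FPKM in WT piPSC and 0 in both MEF samples. Its call also rests on the WT ESC levels, with means of 153 FPKM in 129/B6 and 348 in c57/b6. Spp1 was at 0.351% of the same-strain WT ESC level in WT piPSC and at 31.3% in MEF, and Upp1 was at 0.618% in piPSC and 1.25% in MEF. The Upp1 call was lost without 129/B6 WT ESC sample 1 (adjusted p = 0.064) and without piPSC sample 2 (adjusted p = 0.056). For Zfp42 the direction depends on the pseudocount and the tool. It had 1.07 and 0.965 FPKM in piPSC and 0 in both MEF samples, with a log2 change of -0.85 by limma, 1.60 with a pseudocount of 0.1 and 6.42 by edgeR. Compared in the same way, Nanog -/- iPSC had 10 of 10 markers called higher than MEF by limma, edgeR and DESeq2 alike, where 39.8% of all genes tested were called higher and 35.7% lower. For 9, all but Spp1, the call was at least 4-fold higher, against 10.3% of all genes tested. Among the 9, Eras had means of 1.58 FPKM in Nanog -/- iPSC and 0 in MEF. Its call also rests on the WT ESC means, 5.62 FPKM in 129/B6 and 33.7 in c57/b6. The exception was Spp1, with means of 350.4 FPKM in Nanog -/- iPSC and 573 in MEF, whose log2 change of 0.46 through WT ESC turned to -0.68 after quantile normalization and was not called without 129/B6 WT ESC sample 1 (adjusted p = 0.057) or MEF sample 1 (adjusted p = 0.060).

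**Figure D4:**
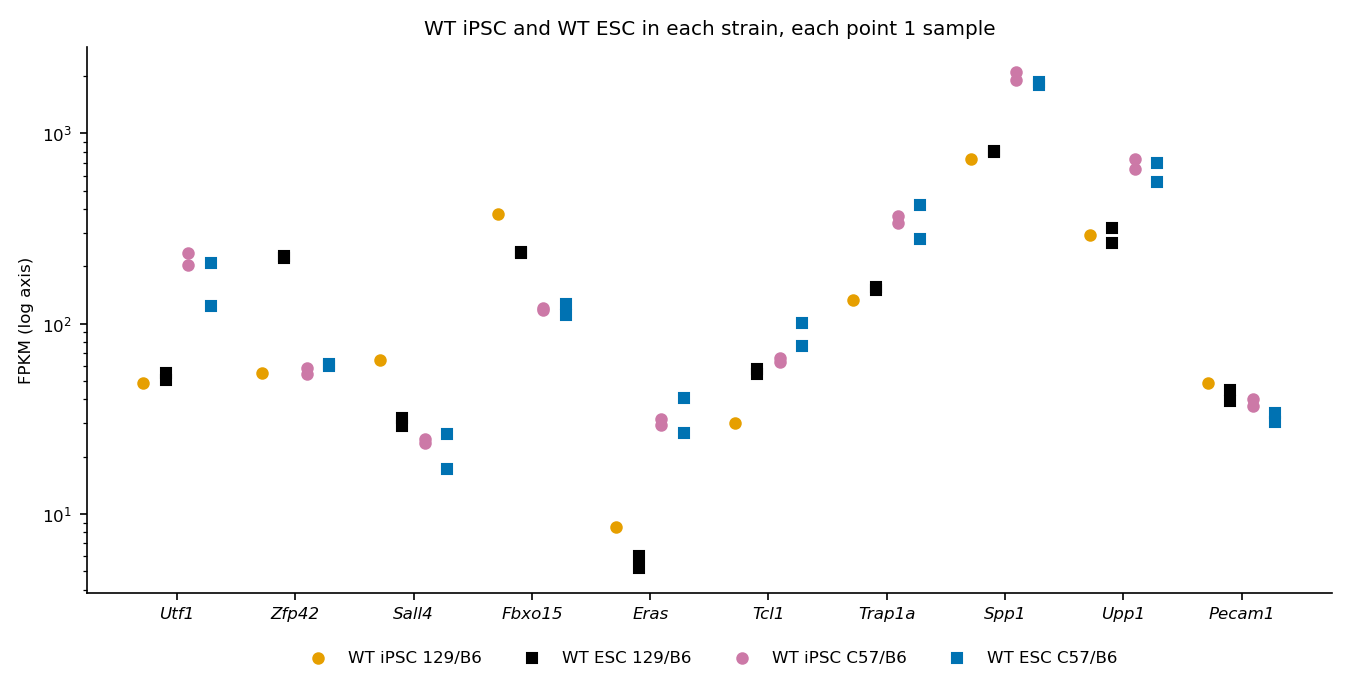
FPKM of each marker on a log axis in WT iPSC (circles) and WT ESC (squares) of 129/B6 and c57/b6, with 1 point per sample. The single 129/B6 iPSC sample lies below 129/B6 ESC for Zfp42 and Tcl1 and above it for Sall4 and Fbxo15, while none of the 10 was called between WT iPSC and WT ESC of c57/b6.

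In c57/b6, where both groups had 2 samples, 0 of 10 markers were called between WT iPSC and WT ESC by limma, and 0.784% of all genes tested were called. At an unadjusted p under 0.05 there were 2, Tcl1 lower and Utf1 higher, and edgeR and DESeq2 called 0. Tcl1 had 66.2 and 62.6 FPKM in WT iPSC against 100.5 and 76.8 in WT ESC (log2 change -0.44 ± 0.13, limma adjusted p = 0.15). Utf1 had 203 and 235 FPKM in WT iPSC against 208 and 124 in WT ESC. The 2 c57/b6 WT ESC samples differed from each other more than most pairs: the coefficient of variation over the 10 markers had a median of 17.5% there, against 4.79% in the other groups without piPSC. Leaving out c57/b6 WT ESC sample 3 or 4 gave more calls, for the markers and over all genes tested. The group then holds 1 sample.

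In 129/B6 a single WT iPSC sample stood against 2 WT ESC samples, and its spread is taken to be that of the other groups. By limma 2 of 10 markers were called higher and 2 lower, where 13.5% of all genes tested were called higher and 12.8% lower. Zfp42 had 55.3 FPKM in WT iPSC against 227 and 220.4 in WT ESC (log2 change -2.00 ± 0.09, limma adjusted p = 6.2e-08). Tcl1 had 29.9 FPKM in WT iPSC against 54.3 and 57.6 in WT ESC (log2 change -0.88 ± 0.16, limma adjusted p = 0.0016). Sall4 had 64.7 FPKM in WT iPSC against 29.1 and 31.9 in WT ESC (log2 change 1.06 ± 0.18, limma adjusted p = 0.00095), and Fbxo15 had 378 against 238 and 234 (log2 change 0.68 ± 0.13, limma adjusted p = 0.0030). The Zfp42, Sall4 and Fbxo15 calls were lost with additive terms for group and strain, which average the contrast over the strains. Fbxo15 was also not called with a pseudocount of 0.1 (adjusted p = 0.35). Of the 19 further ESC-associated genes, 6 were called higher and 3 lower.

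The difference in WT iPSC minus WT ESC between 129/B6 and c57/b6 was itself called for Zfp42, Sall4 and Fbxo15, in a test that called 9.3% of all genes as positive and 8.64% as negative. It was -1.89 ± 0.12 for Zfp42 on the log2 scale (limma adjusted p = 1.2e-06), 0.89 ± 0.23 for Sall4 (limma adjusted p = 0.018) and 0.67 ± 0.17 for Fbxo15 (limma adjusted p = 0.019). The Sall4 call was lost without 129/B6 WT ESC sample 1 (adjusted p = 0.062) and without c57/b6 iPSC sample 2 (adjusted p = 0.055). That of Fbxo15 was lost without 129/B6 WT ESC sample 2 (adjusted p = 0.057), without c57/b6 iPSC sample 3 (adjusted p = 0.053) and with a pseudocount of 0.1 (adjusted p = 0.52). Without c57/b6 WT ESC sample 3 more markers were called, as were more of all genes tested. The level of Zfp42 in the 129/B6 iPSC sample, 55.3 FPKM, lay within the range of c57/b6 iPSC, 54.5 and 58.6 FPKM. With 1 library of 129/B6 WT iPSC, a difference between lines or strains cannot be told apart from variation of that library, here and in the comparison within 129/B6.

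Between WT ESC of 129/B6 and of c57/b6, 3 of 10 markers were called higher and 6 lower, with 32.4% and 35.9% of all genes tested called in those directions. Zfp42 had 227 and 220.4 FPKM in 129/B6 ESC against 59.9 and 61.4 in c57/b6 ESC, a log2 change of 1.86 ± 0.07 (limma adjusted p = 3.3e-09). Fbxo15 (0.98 ± 0.11) and Sall4 (0.49 ± 0.14) were also higher in 129/B6 ESC, though Sall4 was not called without 129/B6 ESC sample 2 (adjusted p = 0.063). Eras had 6.04 and 5.20 FPKM in 129/B6 ESC against 40.9 and 26.5 in c57/b6 ESC, a log2 change of -2.36 ± 0.19 (limma adjusted p = 5e-07). Utf1 (-1.59 ± 0.18) and Trap1a (-1.15 ± 0.15) were lower in 129/B6 ESC too, by -0.98 and -0.30 after quantile normalization, which put Fbxo15 at 1.61. Spp1 (-1.19 ± 0.12), Upp1 (-1.10 ± 0.13) and Tcl1 (-0.64 ± 0.13) were called lower as well, but after quantile normalization their log2 changes were 0.11, -0.00 and -0.17 with no call. Among the 19 further ESC-associated genes, 8 were called higher and 6 lower in 129/B6 ESC. These differences cannot be told apart from the batch.

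Ordered by mean level, the 10 markers gave no common series of groups. Utf1, Trap1a and Upp1 were highest in c57/b6 WT iPSC and WT ESC, whose samples overlapped, and so was Eras. Spp1 was highest in c57/b6 WT iPSC and Tcl1 in c57/b6 WT ESC, each with no overlap. Sall4, Fbxo15 and Pecam1 were highest in the 129/B6 WT iPSC sample, and Zfp42 in 129/B6 WT ESC. WT piPSC was the lowest or, with MEF, the joint lowest group for Utf1, Spp1 and Upp1, and MEF was the lowest group for the others. Eras was the marker for which the piPSC samples overlapped those of 129/B6 WT ESC, the neighbour above it in the order, and for Pecam1 they overlapped those of Nanog -/- ESC.

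Over the 9 groups within strains, whose means share strain, batch and scaling, the mean log2 levels of Tcl1 and Utf1 followed each other most closely (Pearson r = 0.98), and those of Fbxo15 and Spp1 least (r = 0.03). Among 11886 genes, the level of Zfp42 was most like that of Gab1, a docking protein gene (r = 0.997), and Triml2, a gene of the TRIM family (r = 0.993). The genes most like Utf1 were Asna1 (r = 0.995) and Hsf2bp (r = 0.994), and those most like Sall4 were Gm13242 (r = 0.999) and Gm13145 (r = 0.997). Pecam1 was like Sox2 (r = 0.978), Trap1a like Gm7325 (r = 0.995) and Mpdu1 (r = 0.994), and Upp1 like Pnldc1 (r = 0.994) and Ash2l (r = 0.989). The nearest genes for Fbxo15 were Dyrk3 and Kdm3a, for Eras 1810030N24Rik and Rhebl1, for Tcl1 Pld6 and Hsf2bp, and for Spp1 Tsc22d1 and Psmd1, with r of 0.972 to 0.993. With 9 points and so many genes searched, these values are a description.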

How the data were processed

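RNA-seq libraries of 17 samples were made with the TruSeq RNA kit v2, per the labels' protocols, a kit that does not mark strand. Cuffdiff 2.1.1, Bowtie2 2.0.5, TopHat2 2.0.7 and CASAVA are listed in the submitters' processing notes, with the builds mm10 and NCBIM37 and no role for either. The authors deposited per-sample FPKM and estimated counts of fragments per gene. FPKM come from fragments the authors rescaled between samples, per the file headers. Here log2(FPKM + 1) of genes with at least 1 FPKM in at least 2 samples was fitted with limma 3.58.1 (R 4.3.3), all 17 samples, 9 group-by-strain terms, 8 residual degrees of freedom and Benjamini-Hochberg adjustment over 15298 genes at 0.05. Left out were 19 genes with a status other than OK. edgeR 4.0.16 and DESeq2 1.42.0 on rounded fragments were alternatives. The fit was tested on simulated data. Replicate numbers did not pair the samples (r of -0.0556 to 0.114). No label names separate cultures. The p-values therefore reflect only how far these samples differ, which may be technical. Depth was 17.7 M to 43.5 M fragments in 129/B6 and 7.80 M to 30.1 M in c57/b6. The named genes were all 10 markers, the 2 highest and 2 lowest called further ESC genes per comparison, the 2 genes most alike to each marker (1 of them is not reported here) and the 2 highest genes of each cell-type list. The markers and all lists were chosen with earlier results of these data known.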

Additional observations from a re-analysis of the deposited data

Results flagged for a closer look

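The change of WT iPSC against WT ESC differed between 129/B6 and c57/b6 for 3 markers by the test of that difference. For Zfp42 the log2 difference of the changes was -1.89, for Sall4 it was 0.89 and for Fbxo15 it was 0.673. The 129/B6 side rests on 1 iPSC sample, which was at passage 6, while the c57/b6 iPSC were at passages 10 to 15. Passage, strain, batch and variation of that library cannot be told apart here.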

How the results depend on the processing

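Over 91 results on single markers and 2325 values under alternatives, 2245 kept their direction and their side of the threshold, 65 lost a call, 7 gained one and 8 changed sign. The sign changes were those of Sall4 in Nanog -/- iPSC against WT ESC (-0.00832 with DESeq2, -0.06521 with additive terms), Zfp42 in WT piPSC against MEF (1.603 with a pseudocount of 0.1, 6.421 with edgeR, 5.058 with DESeq2), Spp1 after quantile normalization in Nanog -/- iPSC against MEF (-0.6845) and in 129/B6 against c57/b6 WT ESC (0.1098), and Eras in WT piPSC against WT ESC, which ranged from -0.4145 to 0.03773 with 1 sample left out. The cause was not tested.

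With only genes of a mean of at least 5 FPKM, fewer genes were tested, and those called numbered 5910 (9069 without the filter) in Nanog -/- ESC against WT ESC, 6534 (10115) in Nanog -/- iPSC against WT ESC, 6693 (10449) in WT piPSC against WT ESC, 7103 (11341) in Nanog -/- iPSC against WT piPSC, 1585 (2771) in Nanog -/- iPSC against Nanog -/- ESC, 797 (1492) in clone G2 against G5, 8156 (12459) in MEF against WT ESC, 31 (120) in c57/b6 WT iPSC against WT ESC, 2591 (4021) in the same in 129/B6, 7551 (11543) in Nanog -/- iPSC against MEF, 7505 (11730) in WT piPSC against MEF and 1711 (2744) for the difference between strains.

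Nanog -/- iPSC against Nanog -/- ESC gave 4262 genes with DESeq2, 1654 with additive terms, 4519 with 129/B6 samples only and 4368 with the replicate block; 2 markers were called with no filter and 7 with DESeq2. Clone G2 against G5 gave 946 genes with a pseudocount of 0.1, 2502 with DESeq2, 820 with additive terms, 2783 with 129/B6 samples only and 2624 with the replicate block; 0 markers were called with a pseudocount of 0.1, 1 with no filter, with a mean of at least 5 FPKM or with additive terms, and 4 with 129/B6 samples only or with the replicate block. WT iPSC against WT ESC of c57/b6 gave 63 genes with a pseudocount of 0.1, 35 with edgeR, 216 with DESeq2, 1 with c57/b6 samples only and 246 with the replicate block, and 1 marker with additive terms; 50.8% of its calls were higher, against 65.7% with edgeR, 40.3% with DESeq2 and 62.8% with additive terms. In 129/B6 it gave 156 genes and 1 marker with additive terms and 6077 genes with 129/B6 samples only; 51.3% of its calls were higher, against 62.8% with additive terms. The replicate block also ended the calls of Sall4 between strains of WT ESC (0.2749, adjusted p = 0.075) and of Upp1 in WT piPSC against MEF (-0.1857, adjusted p = 0.43); samples share only a number.

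With single samples left out, genes called ranged from 1238 to 4385 in Nanog -/- iPSC against Nanog -/- ESC (1 to 6 markers), 658 to 2773 in clone G2 against G5 (1 to 6), 22 to 4679 in c57/b6 WT iPSC against WT ESC (0 to 3), 2698 to 6024 in 129/B6 (4 to 5) and 1957 to 5854 for the difference between strains (2 to 6). Most groups hold 2 samples, which limits the precision of all values.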

Other observations

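The nearest expressed neighbours of Zfp42 on chromosome 8 were looked at after the Zfp42 values had been seen. Triml2, a gene of the TRIM family, averaged 22.7 FPKM in the 129/B6 WT iPSC sample and 65.2 in 129/B6 WT ESC, and 33.6 in c57/b6 WT iPSC and 30.7 in c57/b6 WT ESC. Triml1, of the same family, had 13.9 FPKM in the 129/B6 WT iPSC sample and 34.8 in 129/B6 WT ESC, and 19.2 in c57/b6 WT iPSC and 18.1 in c57/b6 WT ESC. In WT piPSC Triml2 averaged 0.266 FPKM and Triml1 0.107. On the other side of Zfp42, the cadherin gene Fat1 went the other way, with 25.01 FPKM in the 129/B6 WT iPSC sample against 20.3 in 129/B6 WT ESC, and 46.4 in WT piPSC. Beyond it, Fam149a was low, with 0.560 FPKM in the 129/B6 WT iPSC sample and 0.741 in 129/B6 WT ESC.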
